A study of Caenorhabditis elegans with 2 samples.

Results

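In a ChIP-seq experiment on the homeodomain protein CEH-19 in embryos of the nematode Caenorhabditis elegans, 424 promoter regions lay just below the list of peaks that the irreproducible discovery rate (IDR) procedure kept. They were chosen from the 30000 regions of the pooled list, of which 29977 lay on the 6 nuclear chromosomes. A member had a deposited signal value of at least 80, overlapped no reproducible peak, had its summit between 500 bp before and 100 bp after the start (5' end) of a protein-coding gene, and had no tRNA, snoRNA or snRNA gene within 200 bp. Of the 2636 nuclear regions with a signal value of at least 80, 1479 overlapped no reproducible peak, 433 of these lay in a promoter, and 9 were left out beside a small RNA gene. The 424 members were thus 28.7% of the 1479, whereas 15.8% of all nuclear pooled regions met the same promoter rule, and they were chosen by the pooled signal values themselves.

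The worms were of strain OP739, with the genotype unc-119(tm4063) and the inserted transgene wgIs739, which carries ceh-19::TY1::EGFP::3xFLAG together with unc-119(+). Late embryos of mixed sex were taken at 5 hours after egg bleaching, and chromatin from whole animals was sonicated and precipitated with an antibody against GFP. There was 1 group with 2 biological replicates, which the labels number 2 and 3, and no other genotype, tag or treatment was analysed here. Whether a region depends on CEH-19, and which cells its signal came from, was therefore not tested.

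A promoter is the stretch beside the start of a gene where RNA polymerase is loaded and where many transcription factors bind. CEH-19 is known from the pharyngeal MC motor neurons, which set the pace of feeding, and from a few other neurons. Promoters of housekeeping genes, those for ribosomes, respiration or replication that nearly all cells use, are commonly recovered in ChIP-seq of many different factors in whole worms. Promoters of neuronal genes are used in only a part of the embryo's cells.

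The members often held the short run GAGAG or its complement CTCTC at their summits, and the sequences that follow show how it looks. Each is the 101 bases around the authors' summit, from the RefSeq WBcel235 (ce11) genome, on the strand of the gene and 5' to 3', with GAGAG and CTCTC in capitals. The first 6 were picked, after their sequences were seen, from the strongest members and the neuronal and translation lists to show long and short runs.
B0348.10 (chrV:8801-8901, minus strand): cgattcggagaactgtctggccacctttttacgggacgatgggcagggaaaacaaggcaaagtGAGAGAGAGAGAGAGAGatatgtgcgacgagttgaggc
epc-1 (chrIII:12608687-12608787, minus strand): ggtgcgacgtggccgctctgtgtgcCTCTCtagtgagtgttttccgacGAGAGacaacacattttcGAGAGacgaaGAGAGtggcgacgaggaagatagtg
ife-4 (chrX:1103830-1103930, plus strand): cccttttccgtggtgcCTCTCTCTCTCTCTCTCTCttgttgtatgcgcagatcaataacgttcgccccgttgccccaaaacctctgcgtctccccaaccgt
eef-1A.2 (chrX:7823165-7823265, plus strand): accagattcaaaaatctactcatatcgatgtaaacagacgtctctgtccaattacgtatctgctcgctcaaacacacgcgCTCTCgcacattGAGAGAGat
unc-76 (chrV:15071384-15071484, plus strand): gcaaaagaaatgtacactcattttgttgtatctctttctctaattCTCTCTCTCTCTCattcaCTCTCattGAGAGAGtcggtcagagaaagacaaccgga
ida-1 (chrIII:5755259-5755359, plus strand): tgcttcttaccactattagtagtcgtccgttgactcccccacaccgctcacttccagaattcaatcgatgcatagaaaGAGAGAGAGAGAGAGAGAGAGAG
The next 4 hold neither run and are shown because they are among the strongest member, ribosomal protein and synaptic regions without it.
bmy-1 (chrII:5358427-5358527, plus strand): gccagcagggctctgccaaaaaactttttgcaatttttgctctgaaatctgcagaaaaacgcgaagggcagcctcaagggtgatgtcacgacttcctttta
rps-22 (chrIII:1950381-1950481, plus strand): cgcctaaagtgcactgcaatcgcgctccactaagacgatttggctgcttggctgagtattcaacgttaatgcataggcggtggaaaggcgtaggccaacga
rps-21 (chrIII:7189815-7189915, minus strand): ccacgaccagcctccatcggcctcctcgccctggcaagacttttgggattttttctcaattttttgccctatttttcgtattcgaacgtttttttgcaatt
ehs-1 (chrII:5820173-5820273, plus strand): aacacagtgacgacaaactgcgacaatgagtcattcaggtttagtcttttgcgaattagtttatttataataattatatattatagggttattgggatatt

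Pooled signal values of the members ran from 80.1 to 112.8 with a median of 91.8. The 319 reproducible peaks under the same promoter rule had 113.2 to 693 and a median of 156, and the 3891 weaker promoter regions had 29.7 to 79.98 and a median of 42.5. The signal value is the peak caller's own and nothing among the sources used here states its normalization. The rule set these ranges, so they describe the members and are no finding. The members' −log10 q-values, also the authors', ran from 1.40 to 2.64, with a median of 1.96.

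At the upper edge, the strongest members were those upstream of B0348.10 at 112.8, of epc-1 at 112.6, of M117.3 and, head to head with it, par-5 at 112.5, of bmy-1 at 112.5 and of zfp-3 at 112.4. The weakest reproducible promoter peaks began less than 1 unit above, with rpl-7A, which codes for a large-subunit ribosomal protein, at 113.2. epc-1 codes for the Enhancer of Polycomb homolog and par-5 for a 14-3-3 protein needed for embryonic polarity. At the lower edge, unc-44 had 80.3 and dhhc-14 80.1, while aps-2 and R09F10.8, at 79.98 and 79.96, fell just outside. Values thus ran on across both edges without a gap larger than 1 unit.

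The 424 members stood for 417 of 19973 protein-coding genes (2.09%), taking the gene with the nearest 5' end. The 7 genes with 2 members each were set-25, ehs-1, vps-39, F21C10.10, ZK512.1, utx-1 and dpy-23. None of the 417 genes also had a reproducible peak in its promoter, beside 311 of all 19973 genes (1.56%). By the rule a member overlaps no reproducible peak, which leaves little room for one in the same promoter. The count is therefore no finding. The median distance from a member to the nearest reproducible summit was 30059.5 bp, and 3 members lay within 1000 bp of one. Members overlap no reproducible peak by the rule, and no distance was measured for other regions, so these distances are a description only. In all, 101 members had at least 2 protein-coding genes in the window, so the nearest gene is then a convention.

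Most members lay outside protein-coding genes, here called intergenic, and a little upstream of the start. Of the 424, 352 summits (83.0%) were intergenic, 34 lay in a UTR or other non-coding exon, 20 (4.72%) in a coding exon and 18 in an intron. Among the 319 reproducible promoter peaks, 284 (89.03%) were intergenic and 4 (1.25%) lay in coding exons. Among the 3891 weaker promoter regions, 2600 (66.8%) were intergenic and 617 (15.9%) lay in coding exons. Location against exons was described and not tested, and by both shares the members lay between the stronger and the weaker set.

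The median summit was 174.5 bp upstream of the 5' end in members, with the middle 50% from 277 to 58.75 bp upstream. The median was 190 bp upstream in reproducible promoter peaks and 150 bp upstream in weaker promoter regions. Summits within 100 bp upstream made up 83 of 424 members (19.6%) and 56 of 319 reproducible peaks (17.6%), a difference that did not pass the test, with a ratio of odds of 1.14 (0.773 to 1.70 at 95%, adjusted p = 0.529 over 6 tests of position by Fisher's exact test, two-sided as throughout). The odds ratio was 0.917 (0.704 to 1.18, exact adjusted p = 0.529) against the weaker regions, of which 816 (20.97%) lay there.

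**Figure D1:**
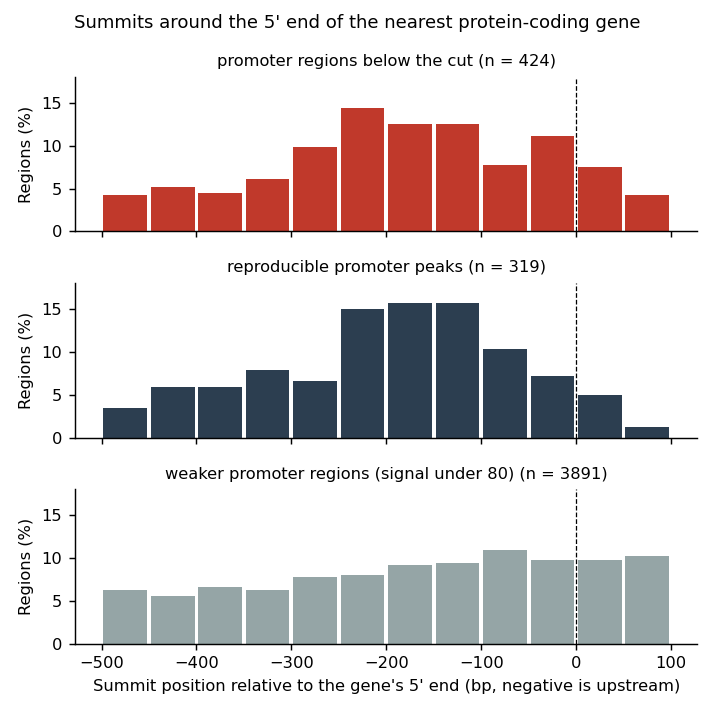
Share of summits (percent of each set) by distance from the nearest protein-coding 5' end in bins of 50 bp, with negative values upstream, for the 424 members, the 319 reproducible promoter peaks and the 3891 weaker promoter regions. Members were most frequent from 250 to 201 bp upstream (14.4%, against 15.0% of reproducible peaks and 8.04% of weaker regions), and fewer of them than of the weaker regions lay downstream of the start (11.1% against 19.7%).

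Divergent promoters, those with the 5' end of a second protein-coding gene on the other strand within 500 bp, were commoner among members than among weaker regions. They made up 64 of 424 members (15.1%), 64 of 319 reproducible promoter peaks (20.1%) and 353 of 3891 weaker regions (9.07%), against 9.25% of all protein-coding genes. The odds ratio against the weaker regions was 1.78 (1.31 to 2.39 at 95%, Fisher's exact test, adjusted p = 0.00107), and it was also above 1 with either replicate alone. Against the reproducible peaks it was 0.709 (0.475 to 1.06, exact adjusted p = 0.156), a difference that did not pass the test.

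The X chromosome carried more members than any other, 93 of 424 (21.9%), with 78 on I, 75 on III, 62 on V and 58 each on II and IV. X held 18.3% of all nuclear pooled regions, 13.7% of all protein-coding genes, 18.8% of the reproducible promoter peaks and 15.3% of the weaker promoter regions. The odds ratio was 1.55 against the weaker regions (1.20 to 1.99 at 95%, Fisher's exact test, adjusted p = 0.00233). Regions were also chosen from a single replicate by the members' ranks, 1094 to 2634, which leaves out stronger regions. The odds ratio against weaker regions was then 1.29 (exact adjusted p = 0.242) from replicate 3 and 1.12 (exact adjusted p = 0.627) from replicate 2. The call was also lost within the pooled list, with a signal limit of 70 (1.28, exact adjusted p = 0.0842) and with a promoter of 250 bp upstream only (1.25, exact adjusted p = 0.280). The odds ratio was 1.21 against the reproducible peaks (0.831 to 1.78, exact adjusted p = 0.472).

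Members on X included both sdc-2 (pooled signal 105.4) and sdc-1 (90.4), genes of X chromosome dosage compensation and sex determination, and lin-14 (99.9), a gene of developmental timing. These 3 lie outside the naming rule and were picked after their values were seen. Support by both replicates was at its lowest on X, with 68 of 93 members (73.1%), and at its highest on I, with 69 of 78 (88.5%).

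Most members had a region in both replicate lists. The pooled list that chose the members was called on both libraries together, so replicate values are part of the choice and carry no test. A summit within 100 bp of the member's lay in both replicate lists for 346 of 424 members (81.6%, exact 95% interval 77.6 to 85.2%), against 297 of 319 reproducible promoter peaks (93.1%), 884 of 3891 weaker regions (22.7%) and 25% of all nuclear pooled regions. A further 20 members (4.72%) were found in replicate 2 and 58 (13.7%) in replicate 3 as the only match. Of all nuclear pooled regions, 23.6% and 34.7% were found in these ways. None of the 424 was in neither list (exact 95% interval up to 0.866%), beside 16.6% of all nuclear pooled regions. The members were chosen by the pooled value of both libraries, so this count is no finding.

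Where a match was missing, another region often lay a little beyond 100 bp. For the 58 members without a match in replicate 2, the nearest region there had its summit at a median of 160 bp, and 38 were within 200 bp. For the 20 without a match in replicate 3 the median was 137 bp, and 19 were within 200 bp. Within 200 bp, both replicates had a region for 403 members (95.05%). The share of all nuclear pooled regions at this wider distance was not counted, so the value is a description only. The distance also sets the value taken: eat-18, matched within 100 bp at 22.1 in replicate 2 and 28.5 in replicate 3, had 66.2 in replicate 3 for the strongest region within 200 bp.

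The rule also affects where members rank in a replicate's own list. None was among the 1112 strongest regions of both replicates, beside 1.96% of all nuclear pooled regions. The pooled value was mostly close to the sum of the replicate values, from 0.743 to 1.76 of it. It stops at 112.8, below the sum of the signal values at rank 1112 in both lists. The choice thus makes a low count likely, and the count is no finding. 40 members were among the strongest in replicate 2 alone, 42 in replicate 3 alone and 342 (80.7%) in neither. Rank 1112 stood at a signal value of 51.5 in replicate 2 and 71.0 in replicate 3, and the members' median ranks were 2876.5 and 2109.5 in these lists.

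Over the 346 members with both values, replicate 2 had a lowest value of 16.4, a median of 38.5 and a highest of 81.1. Replicate 3 had 20.9, 55.1 and 90.3. The log2 ratio of replicate 3 to replicate 2 had a median of 0.50 and an SD of 0.65, a factor of 1.57. Replicate 3 was higher in 269 of 346 members. It was also higher in 254 of 297 reproducible promoter peaks and in 5621 of 7506 nuclear pooled regions with both values. The median log2 ratios there were 0.53 and 0.38, so higher values in replicate 3 were not particular to the members. Across members Spearman's rho between the replicates was −0.420, against 0.414 in the reproducible promoter peaks. The pooled value was close to the sum of both (median ratio 1.01). Holding the pooled value between 80 and 113 therefore tends to pair high values with low ones. The rho is given as a description of regions that share 2 libraries and is no measure of reproducibility here.

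**Figure D2:**
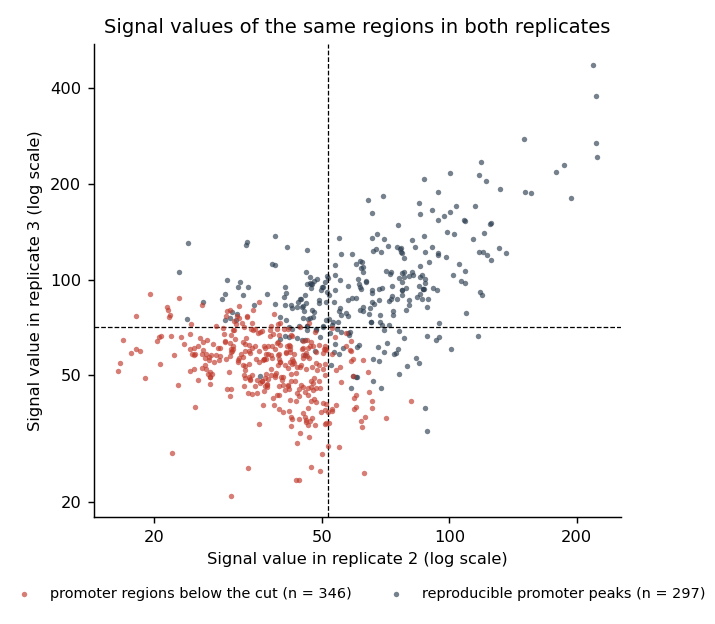
Signal value in replicate 3 against replicate 2, both on log axes, for the 346 members and the 297 reproducible promoter peaks with a match within 100 bp in both lists; dashed lines mark the signal value at rank 1112 in each list (51.5 and 71.0). The rule limits the pooled value, which was 0.743 to 1.76 of the sum of both values. No member lay beyond both lines, and members run from high in replicate 2 and low in replicate 3 to the reverse.

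By the lower of the replicate values, the 8 highest were ehs-1, pir-2, eef-1A.2, rsd-3, unc-108, M117.3, mog-5 and C14A11.5. The first, ehs-1, the worm EPS15 homolog of endocytosis at synapses, had 58.6 in replicate 2 and 59.6 in replicate 3. eef-1A.2, a copy of translation elongation factor 1A, had 58.2 and 60.2. unc-108, the worm Rab2 GTPase of dense-core vesicle traffic, had 56.9 and 67.9. In each of these 3 genes replicate 2 was above its rank 1112 edge and replicate 3 below it.

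Other members leaned on 1 library. nuo-2, a respiratory complex I subunit, had 62.8 in replicate 2 and 24.5 in replicate 3, and cyc-1, cytochrome c1 of complex III, had 70.7 and 36.7. epc-1 had 81.1 and 41.4. The reverse held for ints-4, an Integrator complex subunit, with 19.6 in replicate 2 and 90.3 in replicate 3, for eif-2beta, a translation initiation factor subunit, with 21.4 and 82.0, and for ric-19 with 21.6 and 79.9. In each of these members 1 replicate gave the larger part of the sum of both.

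The gene lists that follow hold 16 housekeeping, 9 neuronal and 7 other groups and are described by counts, with no test. Housekeeping genes were frequent among the members. Of the 417 member genes, 84 (20.1%) were on a housekeeping list, against 64 of 311 genes with a reproducible promoter peak (20.6%), 310 of 3536 genes with a weaker promoter region (8.77%) and 5.99% of all protein-coding genes. In other terms, 7.02% of the 1196 housekeeping genes had a member (exact 95% interval 5.64 to 8.62%) beside 2.09% of all genes. Ranks 1094 to 2634 of a single replicate gave 54 housekeeping genes among 255 in replicate 2 and 51 among 328 in replicate 3.

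The share was above that of all genes in 15 of 16 housekeeping lists, and in 13 of these it also held among genes with any promoter region in the pooled list. The exception was the proteasome, with 0 of 31 genes. Ribosomal proteins had 13 of 81 (16.0%), translation factors and tRNA synthetases 9 of 76 (11.8%), and cell cycle and DNA replication genes 11 of 100. The vacuolar ATPase had 2 of 21, chaperones 7 of 75, ubiquitin conjugation 5 of 60, the respiratory chain and ATP synthase 4 of 57, and vesicle transport 9 of 130. In the other 7 lists the share ran from 2.38% for the citric acid cycle and glycolysis (1 of 42) to 5.30% for transcription and chromatin (8 of 151).

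**Figure D3:**
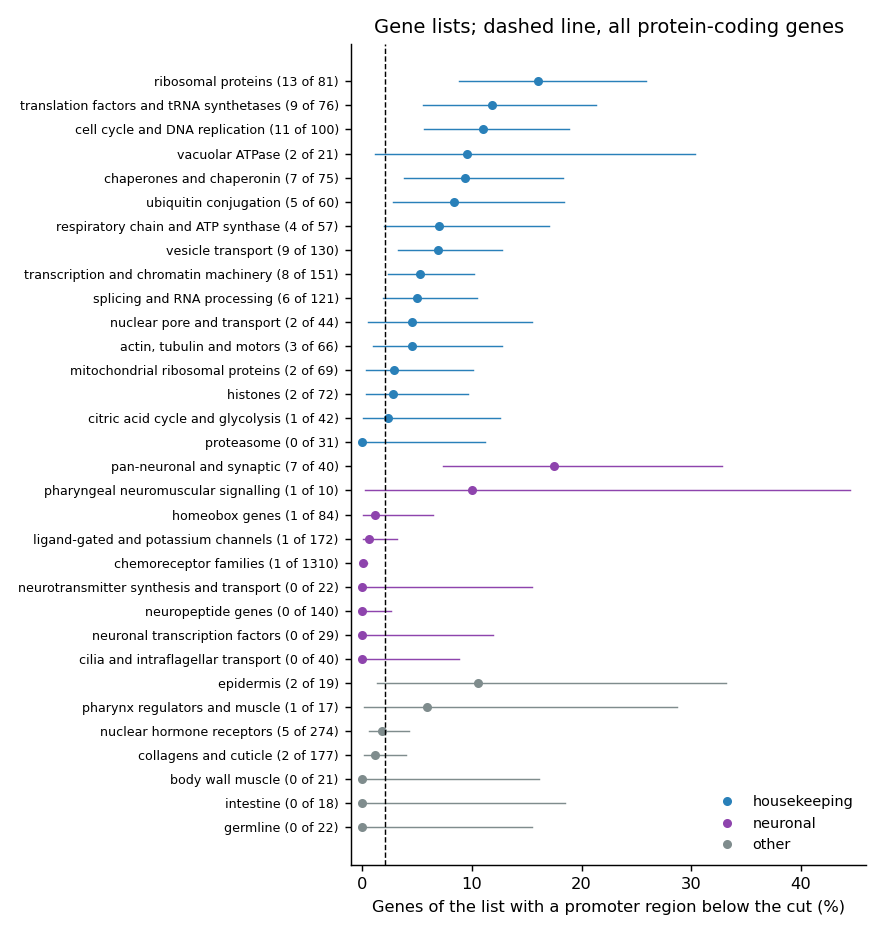
Percent of the genes of each list with a member in the promoter, with exact 95% intervals that cover counting error only, beside the 2.09% of all protein-coding genes. Ribosomal proteins (16.0%) and pan-neuronal and synaptic genes (17.5%) had the highest shares among lists of at least 20 genes, and the proteasome, neuropeptide and neurotransmitter lists were among those with none.

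The ribosomal protein members were rpl-11.2, rps-22, rps-13, rps-21, rpl-41.1, rpl-41.2, rpl-12, rpl-14, rps-4, rps-5, rps-30, rps-10 and rpl-7, with pooled signals from 85.7 to 105.9. A reproducible promoter peak was present at 6 of the 81 genes. rps-13, which codes for a small-subunit protein, had 49.1 in replicate 2 and 53.7 in replicate 3, and rps-21 had 55.0 and 52.9. rpl-14, of the large subunit, had 21.6 and 76.2. Both replicates matched 11 of these 13 regions, and the balance between them differed from gene to gene. The neighbours rpl-41.1 and rpl-41.2 code for near-identical peptides, and the placement of reads shared by close copies is unknown.

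Of the translation genes, ife-4, an eIF4E cap-binding protein, had 39.7 in replicate 2 and 73.1 in replicate 3, and its pooled signal was 111.0. The initiation factor 3 subunits eif-3.B and eif-3.I had pooled signals of 109.2 and 108.7. The aminoacyl-tRNA synthetase genes were yars-2 at 107.9, nars-1 at 92.1 and kars-1 at 91.3. Both replicates matched all 9 regions of this list, and their median of 107.9 was above the 91.8 of all members.

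The cell cycle and DNA replication list had 11 member genes of 100, beside 2.09% of all genes, and 3 genes with a reproducible promoter peak, beside 1.56% of all genes; the difference was not tested. cdk-7, the kinase of general transcription factor TFIIH and activator of cell cycle kinases, had 50.8 in replicate 2 and 61.7 in replicate 3. rfc-4, a clamp loader subunit, had 47.0 and 63.5. bub-1, a spindle checkpoint kinase, had 59.1 and 49.6. The others were the polymerase subunits pola-1 and pole-1, the sliding clamp pcn-1, the kinetochore genes knl-1 and knl-2, and cdk-9, cdc-14 and sld-2. The chromatin list added mog-5 (62.6 in replicate 2 and 55.8 in replicate 3), which codes for an RNA helicase of splicing, the histone-binding lin-53 (39.3 and 72.6), and hmg-1.2 (44.8 and 60.4).

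In the mitochondrial and secretory groups, atp-2, the beta subunit of ATP synthase, had 50.9 in replicate 2 and 60.6 in replicate 3. The vacuolar ATPase gene vha-12 had 53.5 and 66.1. pdi-6, a protein disulfide isomerase of the endoplasmic reticulum, had 35.3 and 84.7 and the highest pooled signal of the chaperone list, 111.7. A further pair of strong members, trap-2 (112.4) and trap-3 (112.0), code for subunits of the translocon-associated complex at the endoplasmic reticulum but are on no list. trap-2 had 81.4 in replicate 3 and no match within 100 bp in replicate 2, where the nearest region was at 152 bp. trap-3 had 32.7 in replicate 2 and 70.8 in replicate 3. In the list of chaperones, the small heat shock gene hsp-16.41 (98.6) shares its region with the divergent hsp-16.2. This region had 43.8 in replicate 2 and no match within 100 bp in replicate 3, where the nearest region was at 134 bp.

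Neuronal genes were few, and most of them were genes of synapses and axons. Of the 417 member genes, 11 (2.64%) were on a neuronal list, against 10 of 311 genes with a reproducible promoter peak (3.22%), 173 of 3536 with a weaker region (4.89%) and 9.19% of all genes. Chemoreceptors make up 1310 of the 1835 neuronal genes. Without them 10 of 525 genes (1.90%) had a member, close to the 2.09% of all genes. By ranks 1094 to 2634 in a single replicate the number of neuronal genes was 4 in replicate 2 and 11 in replicate 3.

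The pan-neuronal and synaptic list had 7 member genes of 40 (17.5%, exact 95% interval 7.34 to 32.8%), beside 4 of 40 with a reproducible promoter peak. unc-76, a kinesin adaptor for axon outgrowth, had 31.7 in replicate 2 and 82.4 in replicate 3 and the highest pooled signal of the list, 109.0. egl-21, the carboxypeptidase that trims neuropeptides, had 60.1 and 43.2. The 2 regions of ehs-1 had 58.6 and 59.6 at 489 bp upstream, and 47.9 and 42.1 at 290 bp upstream. By signal value, replicate 3 was thus the higher one at unc-76 and replicate 2 at egl-21. The first ehs-1 region had nearly equal values, and the second was higher in replicate 2. The scales of the lists differ, with rank 1112 at 51.5 in replicate 2 and 71.0 in replicate 3.

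The other synaptic members were weaker or uneven. ric-19, the ICA69 homolog of dense-core vesicle maturation, had a pooled signal of 104.3, and its region lies head to head with pmlr-1, 12 bp upstream of ric-19. ida-1, the IA-2 homolog of dense-core vesicles, had 85.4 and no region of replicate 2 within 200 bp. unc-44, the ankyrin of axons, had 80.3, with 32.6 in replicate 2 and 50.04 in replicate 3. unc-26, synaptojanin, had 80.4 and a match within 100 bp in replicate 2 only. From ranks 1094 to 2634 of replicate 2 alone ehs-1 and unc-26 were kept, and of replicate 3 alone unc-76 and ida-1. This step leaves out regions that rank above 1094, so absence from it is no lack of support. ric-19 was at rank 809 in replicate 3. The unc-76 region with 82.4 in replicate 3 also ranked above the band, so unc-76 was kept there through another region.

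On the list of pharyngeal neuromuscular signalling, 1 of 10 genes was a member gene. It was eat-18, which codes for a small membrane protein needed by the nicotinic receptors on pharyngeal muscle that receive input from the MC neurons. Its summit lay 47 bp downstream of the 5' end, with a pooled signal of 89.2. The remaining member genes on a neuronal list were unc-29, the homeobox gene ceh-74 (93.4) and the chemoreceptor gene srh-16 (105.0). unc-29 codes for an acetylcholine receptor subunit of body wall muscle. Its pooled signal was 83.9, with 49.7 in replicate 2 and 38.4 in replicate 3. The neuronal lists thus also hold genes of receptors on muscle, as eat-18 and unc-29 show.

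No gene of the lists of neurotransmitter synthesis (0 of 22), neuropeptides (0 of 140), neuronal transcription factors (0 of 29) or cilia (0 of 40) had a member. At these list sizes 0 allows shares of up to 13.6%, 2.14%, 10.3% and 7.50% by counting error, beside 2.09% of all genes, so a lower share than that of all genes is not shown. By rank in replicate 3 alone, the neuropeptide genes ins-29 and nlp-81 and the transcription factor genes lin-11 and unc-30 had a region. The ceh-19 and unc-119 genes, which the transgene carries, had no pooled region within 1 kb. Genes on no list with known neuronal roles were also present, picked after their values were seen: mec-12, a tubulin of touch neurons (96.8), unc-16, a kinesin cargo adaptor (96.0), calf-1, for calcium channel traffic (91.8), unc-69, for axon outgrowth (83.4), and syg-1, for synapse placement (82.1). The count of 11 therefore depends on what the lists hold.

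The other 7 lists had 9 member genes of 545 (1.65%), beside 2.09% of all genes. Nuclear hormone receptors had 5 of 274 genes, nhr-49, nhr-23, nhr-1, nhr-64 and nhr-228, collagens 2 of 177, and epidermis markers 2 of 19, the polarity gene let-413 (109.1) and nhr-23 (92.7), a regulator of moulting. Pharynx genes had 1 of 17, the myosin myo-1 (83.7), matched in replicate 3 only. Body wall muscle (0 of 21), intestine (0 of 18) and germline (0 of 22) lists had none, and 0 in lists of this size allows shares of up to 14.3%, 16.7% and 13.6%. Over all lists, 313 of the 417 genes were on none, 122 of the 417 having only a sequence name.

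GAGAG was frequent at the members' summits and rarer beside them. The word was chosen with results on stronger peaks of these data known. Read on both strands, it lay within 50 bp of the summit in 177 of 424 members (41.7%, exact 95% interval 37.0 to 46.6%) and in 64 (15.1%) of windows of the same width 300 bp away. It was present at the summit and absent from the flank in 145 members, and the reverse in 32 (exact two-sided McNemar test, adjusted p = 1.54e-17 over 7 words). Of all nuclear pooled summits 20.9% held it, and of all promoters 15.7% held it in a window at the members' median distance. B0348.10, ife-4 and ida-1, printed above, hold long runs, and epc-1 holds scattered copies.

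Against promoter regions of other strengths the word was commoner in the members than in the weaker set. It was found at 41.7% of member summits, against 34.2% of reproducible promoter peaks and 22.4% of weaker regions. The odds ratio against the weaker regions was 2.48 (2.00 to 3.06 at 95%, Fisher's exact test, adjusted p = 9.73e-16 over 14 tests). Against the reproducible peaks it was 1.38 (1.01 to 1.89, exact adjusted p = 0.0696), which did not pass, and with regions chosen by rank in replicate 2 it was 0.815 (exact adjusted p = 0.396), in the other direction. In the flanks the word was at 15.1% in members, 15.0% in reproducible promoter peaks and 13.9% in weaker regions.

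**Figure D4:**
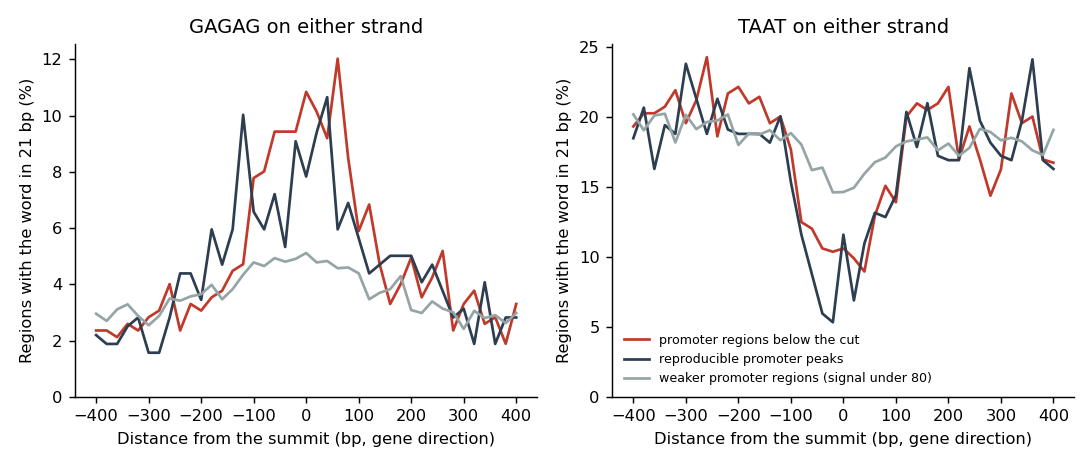
Percent of regions with GAGAG or CTCTC and with TAAT or ATTA in windows of 21 bp, by distance from the summit in bp along the gene's strand, for members, reproducible promoter peaks and weaker promoter regions. In members GAGAG was at 10.8% at the summit and 2.36% at 400 bp upstream, and TAAT was at 10.6% at the summit and 19.3% at 400 bp upstream.

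The word moved with base composition. The median GC content of the 101 bases was 46.5% at member summits and 34.7% in their flanks, 49.5% and 35.6% in reproducible promoter peaks, and 39.6% and 35.6% in weaker regions. Among windows of at least 45% GC, GAGAG was in 129 of 251 members (51.4%), 90 of 233 reproducible peaks (38.6%) and 395 of 1178 weaker regions (33.5%). Among windows under 35% GC it was in 7 of 45 members (15.6%), 4 of 25 reproducible peaks (16.0%) and 121 of 1195 weaker regions (10.1%). The part of GC content in the difference between the sets was not tested.

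Read along the gene, the pyrimidine strand was the commoner one. CTCTC alone was on the gene's strand in 105 members, GAGAG alone in 59 and both in 13, with neither in 247. The same order held in the reproducible promoter peaks (65, 37, 7 and 210) and the weaker regions (588, 225, 60 and 3018).

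The word was spread unevenly over the gene groups. It was at 25 of 86 regions whose nearest gene was on a housekeeping list (29.1%), 8 of 12 on a neuronal list (66.7%), 6 of 9 on another list (66.7%) and 138 of 317 on none (43.5%). Ribosomal protein regions had it in 1 of 13 (7.69%), the exception being rps-4, whereas all 5 nuclear hormone receptor regions had it. Among the synaptic regions 5 of 8 had it, those of unc-76, ric-19, egl-21, ida-1 and unc-26. These splits were looked at after the overall share was known, rest on few regions and have no test.

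TAAT, the core of many homeodomain binding sites, went the other way. It was within 50 bp of 182 member summits (42.9%) and in 277 flanks (65.3%), lower at the summits by the exact two-sided McNemar test (adjusted p = 3.09e-10). The share was 51.5% over all nuclear pooled summits. It was 34.5% in reproducible promoter peaks (odds ratio 1.43, Fisher's exact test, adjusted p = 0.0531) and 55.5% in weaker regions (0.604, exact adjusted p = 4.66e-06). TAAT holds no G or C, and it was in 39 of 45 member windows under 35% GC and 74 of 251 of at least 45%. The longer TAATTG or TAATTA, which contain TAAT, were at 30 member summits and 60 flanks (exact adjusted p = 0.00142), with 9.38% over all pooled summits.

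Of the other words, ACACAC was at 57 member summits (13.4%) and 14 flanks (3.30%, exact McNemar adjusted p = 2.95e-07), against 13.5% of reproducible promoter peaks, 5.60% of weaker regions and 6.14% of all pooled summits. Its odds ratio was 2.62 against the weaker regions (Fisher's exact test, adjusted p = 1.59e-07). TATAAA, the TATA box core, was at 20 summits and 51 flanks (exact McNemar adjusted p = 1.64e-04), and 7.44% of all pooled summits held it. TTTCAG, the common end of worm introns and splice leader sites, was at 49 summits and 118 flanks (exact adjusted p = 1.39e-09), with 14.7% over all pooled summits. It was the only 1 of the 7 words whose share differed from the reproducible peaks by the test, 11.6% in members against 5.64% (odds ratio 2.18, 1.22 to 4.07 at 95%, Fisher's exact adjusted p = 0.0175). Summits downstream of the 5' end also made up more of the members, 11.1% against 6.27%, and their part in this was not tested. TAAACG was at 11 summits and 15 flanks (exact adjusted p = 0.541), near the 2.86% of all pooled summits.

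The share of promoter regions with GAGAG differed along the range of pooled signal. The share was 26.0% at signal values from 70 to 80, 36.9% from 80 to 90, 44.4% from 90 to 100 and 45.9% from 100 to 113. Above the reproducible edge it was 40.8% from 113 to 150, 30.5% from 150 to 200 and 25.4% from 200. Regions on a housekeeping list were at 14.5% from 70 to 80, 27.9% from 100 to 113, 21.1% from 113 to 150, 14.3% from 150 to 200 and 26.9% from 200. Support by both replicates went from 3.71% under 40 to 90.2% from 100 to 113 and 97.0% from 200. These shares over bands are descriptions of 1 pair of libraries, and no step was seen at the lower limit of 80 in the support by the replicates, which was 68.9% from 70 to 80 and 76.1% from 80 to 90.

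**Figure D5:**
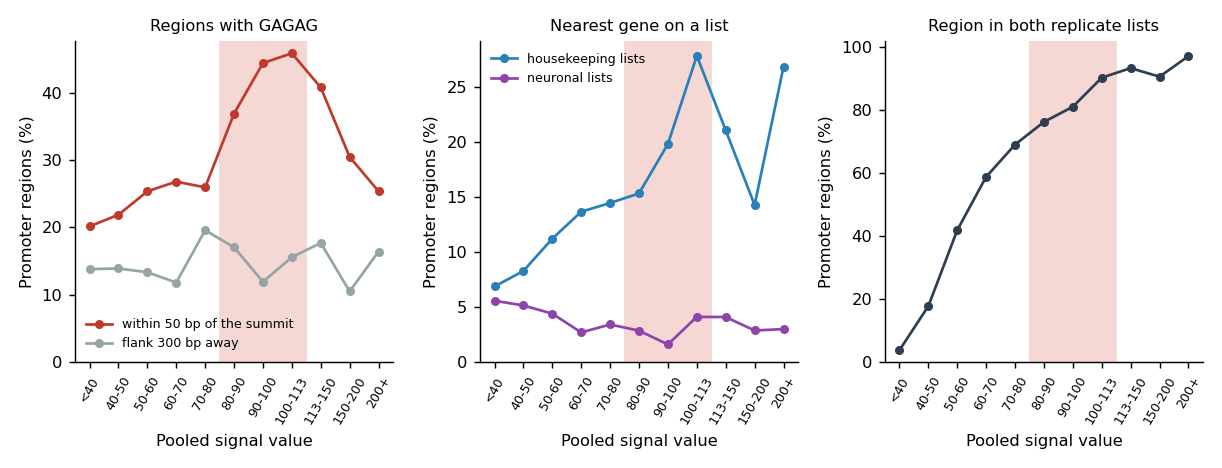
Percent of promoter regions with GAGAG within 50 bp of the summit or in the flank (left), with the nearest gene on a housekeeping or neuronal list (middle), and found in both replicate lists (right), by band of pooled signal value from under 40 to 200 and above; shading marks the members' bands from 80 to 113. GAGAG had its highest share at 100 to 113 (45.9%) and replicate support climbed to 97.0% in the top band.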

How the data were processed

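Peak lists of ChIP-seq on 2 biological replicates of 1 group were analysed, on build ce11. Deposited text files state that each replicate's list holds peaks and background regions called against 1 control file. They also state that calling on both libraries together gave the pooled list, and that IDR on these gave the reproducible list. The signal values and −log10 q-values are as the authors deposited them. Nothing among the sources used here names the aligner, the peak caller, their versions, the normalization or the IDR threshold. No read counts were analysed, so the depth is unknown, and the spread between replicates is the only measure of precision.

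Genes came from the Ensembl WBcel235 annotation, release 115, and sequence from the RefSeq genome of the same build. Summits were matched within 100 bp. Reproducible promoter peaks and weaker regions follow the members' location rule. Shares were tested by Fisher's exact test (two-sided), and words at summits by exact McNemar tests against flanks, with Benjamini-Hochberg adjustment over 14, 6 or 7 tests. Intervals are exact 95% and cover counting error only. The units are regions of 1 pair of libraries, so p-values say nothing of the spread over further cultures. The scripts, run with numpy 2.4.6 and scipy 1.17.1 under Python 3.11.15 and drawing with matplotlib 3.10.9, were tested on simulated data.

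The members, words and gene lists were chosen with earlier results of these data known. Named genes were the 20 strongest members, the 8 with the highest lower replicate value, the strongest per chromosome, the 5 on each side of the limit, all neuronal list members, the 3 strongest of each other list, ceh-19 and unc-119. Full list memberships, genes with 2 members, members leaning on 1 replicate and those said to be picked later were named beyond it. Of the names in the 32 lists, 3 were not found. A total of 79 alternatives were planned, and 6 more, GAGAG without X members and with both replicates only, were added after seeing the data. A neighbouring gene of 1 member is not reported here.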

Additional observations from a re-analysis of the deposited data

How the results depend on the processing

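Members numbered 659 with a limit of 70, 122 with a limit of 100, 253 in a promoter of 250 bp upstream only, and 259 to 330 when taken by rank from a single replicate. Replicate support was 77.1% and 90.2% with limits of 70 and 100, and 52.4% and 95.05% for matches within 50 and 200 bp. No share of all pooled regions was counted at these distances. GAGAG at summits against flanks kept its call under all 12 alternatives run, those without a replicate giving ratios of 2.41 to 4.92, as did GAGAG (1.66 to 2.51) and divergent promoters (2.03 to 2.15) against weaker regions. Against reproducible peaks, the GAGAG odds ratio was 1.52 with words within 100 bp (exact adjusted p = 0.0135) and 0.815 to 1.44 without a replicate, with the direction turned without replicate 3. The X odds ratio there was 0.986 with a promoter of 1000 bp and 0.812 to 1.14 without a replicate, and that of divergent promoters was 1.13 with a limit of 100 and 0.797 to 0.816 without a replicate. The X call against weaker regions was lost with a limit of 70 (1.28), a promoter of 250 bp (1.25) and without a replicate (1.12 to 1.29). Neuronal genes numbered 19, 5 and 7 with limits of 70 and 100 and the promoter of 250 bp, and 4 to 11 without a replicate. Housekeeping genes numbered 34 with a limit of 100, 51 with the promoter of 250 bp and 51 to 54 without a replicate. The cause of these changes was not tested, beyond the number of regions each setting keeps. No paired analysis was possible because there is only 1 group. The unknown read depth, a single pair of libraries and the lack of a precipitation without the tag limit all values.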

Other observations

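Several members sit where the nearest gene is a matter of convention. An annotated non-coding gene or pseudogene other than a tRNA, snoRNA or snRNA gene lay within 200 bp of 64 members, and 14 members overlapped another member. Taking every protein-coding gene in the window in place of the nearest, 109 members had a housekeeping gene, against 86 by the nearest gene. The strongest member, at B0348.10, lies 8851 bp from the start of the chromosome V sequence.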
